A study of Homo sapiens with 19 samples.

Results

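The immune genes LTA, TNF, LTB, LST1, NCR3 and AIF1 stand close together in the class III region of the human major histocompatibility complex on chromosome 6, and the histone marks over them were followed in leukaemia cells treated with Corin. They are 6 of the 20033 protein-coding genes of GENCODE release 44. Their interval ran from 20 kb before LTA to 20 kb past AIF1, chr6:31552054-31637021 on hg38, 84968 bp long. The 6 genes were chosen by the bases under H3K27ac peaks around LTB, whose difference between Corin and DMSO was among the largest of all genes, so every Corin against DMSO value for them is a description and carries no test. The quantity is the number of bases under called peaks, counted once where peaks overlapped.

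MOLM-13, an established acute myeloid leukaemia line, was grown with Corin at 0.1 µM for 24 h or with the vehicle DMSO for 24 h. Corin is a hybrid inhibitor that acts on the lysine demethylase LSD1 and the histone deacetylases HDAC1 and HDAC2 of the CoREST complex. The labels print the same 0.1 µM for DMSO, and what that figure means for a vehicle is not explained there. CUT&RUN, in which an antibody-bound nuclease cuts out the chromatin around a mark, was run for H3K27ac, H3K4me2 and H3K4me3, with 2 Corin and 2 DMSO libraries for each mark and so 12 lists of peaks. All libraries come from 1 line, and the labels do not say whether the 2 replicates were separate cultures, so their spread may be technical.

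TNF, lymphotoxin alpha (LTA) and lymphotoxin beta (LTB) are founding members of the TNF superfamily of cytokines. Soluble TNF and lymphotoxin alpha bind the TNF receptors, while lymphotoxin alpha and beta together form a membrane-bound trimer that binds the lymphotoxin beta receptor, and these receptors act largely through the transcription factor NF-kappaB. LST1 is a small protein of leukocytes of the myeloid line, NCR3 encodes the natural killer cell receptor NKp30, and AIF1 encodes the calcium-binding protein IBA1 of macrophages and microglia. H3K4me3 marks active gene starts, H3K4me2 marks starts and enhancers, and H3K27ac marks the active ones among them.

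The sequences that follow are those over which H3K27ac peaks were found in both Corin lists while being absent or partial in the DMSO lists. The first pair are the 250 bases before the RefSeq start sites of TNF (chr6:31575315-31575564, plus strand) and LTB (chr6:31582426-31582675, minus strand) on GRCh38.p14, printed 5′ to 3′ along the gene. The others are the central 200 bases, plus strand of hg38, of 3 of the 12 H3K27ac stretches of at least 200 bp present in both Corin lists and neither DMSO list, picked after their values and letters were seen to show TNF, LTB and AIF1: within TNF across the end of its first intron and into its second exon (chr6:31576372-31576571), upstream of LTB (chr6:31582658-31582857) and upstream of AIF1 (chr6:31614534-31614733). The longest of the 12 stretches, 1021 bp within TNF, is not printed. Capitals mark GGGNNNNNCC, a broad NF-kappaB pattern, and GAGGAA, a core of PU.1 sites, on either strand.
TNF before the start: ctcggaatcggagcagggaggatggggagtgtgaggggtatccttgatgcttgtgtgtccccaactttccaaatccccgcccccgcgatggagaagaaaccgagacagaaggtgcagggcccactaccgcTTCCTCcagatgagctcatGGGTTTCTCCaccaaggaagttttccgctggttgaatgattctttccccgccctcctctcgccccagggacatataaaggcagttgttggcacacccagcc
LTB before the start: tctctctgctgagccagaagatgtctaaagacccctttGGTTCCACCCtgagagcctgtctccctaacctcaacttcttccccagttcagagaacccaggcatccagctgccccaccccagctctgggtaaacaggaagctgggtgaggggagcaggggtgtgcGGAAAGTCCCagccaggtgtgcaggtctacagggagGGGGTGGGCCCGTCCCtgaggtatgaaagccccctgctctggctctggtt
TNF intron 1 and exon 2: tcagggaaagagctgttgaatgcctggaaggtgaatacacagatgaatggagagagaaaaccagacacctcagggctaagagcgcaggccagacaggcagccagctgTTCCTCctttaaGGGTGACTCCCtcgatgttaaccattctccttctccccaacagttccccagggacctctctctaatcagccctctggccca
LTB upstream: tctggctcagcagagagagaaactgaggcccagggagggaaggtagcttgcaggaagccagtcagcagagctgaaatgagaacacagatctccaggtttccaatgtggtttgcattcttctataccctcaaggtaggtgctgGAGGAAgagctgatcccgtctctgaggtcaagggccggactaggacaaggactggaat
AIF1 upstream: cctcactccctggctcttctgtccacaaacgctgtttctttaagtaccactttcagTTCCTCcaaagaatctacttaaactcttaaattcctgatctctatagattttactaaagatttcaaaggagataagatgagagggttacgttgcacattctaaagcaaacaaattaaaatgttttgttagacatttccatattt

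The LTB sequence holds the match GGAAAGTCCC beginning 86 bases before the start. Those exact letters, on either strand, were in 0.179% of the 35116 RefSeq windows of 250 bases, and the exact letters of the other 5 matches in that window were in 0.114% to 0.379% of them. The broad pattern GGGNNNNNCC was in 54.4% and GAGGAA in 23.6% of these RefSeq windows, so a match to either is common. TATAAA began 29 bases before the TNF start and was found in 10.7% of windows. Over the central 200 bases of 2693 H3K27ac regions of chromosome 6, GGGNNNNNCC was in 30.4%, GAGGAA in 20.8% and TGANTCA, the AP-1 pattern, in 7.32%. Of the 12 stretches 4 held GAGGAA in their central 200 bases, all 3 printed ones among them, 7 held GGGNNNNNCC and 2 held TGANTCA. RefSeq windows matched 5 of the 6 genes, all but NCR3.

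**Figure D1:**
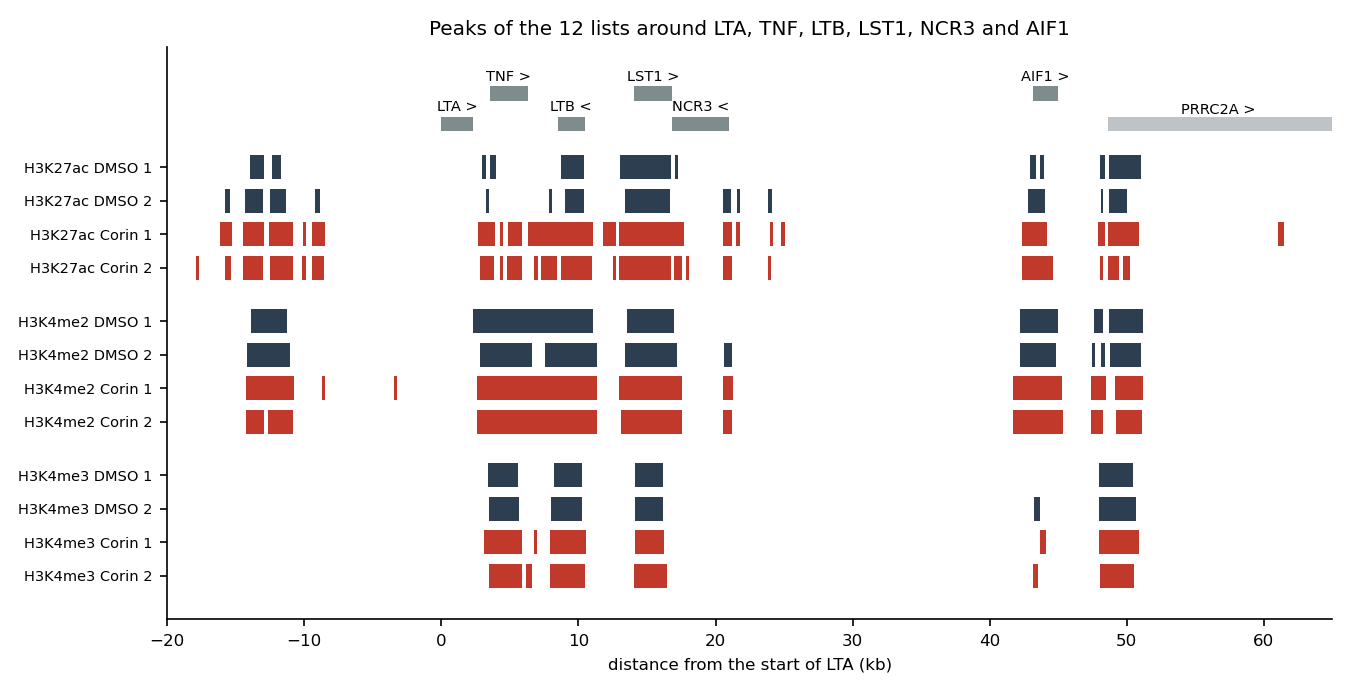
Peaks of the 12 lists (rows; blue-black, DMSO; red, Corin; numbers are replicates) along the interval, in kb from the start of LTA, with the genes above and arrows for their strand. H3K4me2 covered TNF, LTB and LST1 whole in all 4 lists, while the H3K27ac bars over TNF and between TNF and LTB were wider in the Corin lists; LTA had no bar.

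Before the values, the cell type was checked on its markers. Of 12 myeloid leukaemia markers, 12 had an H3K27ac peak within 10 kb of the gene start in at least 1 list, but 2 of them had none with DMSO. Those were CSF1R, at 354 and 259 bp with Corin, and ITGAM, at 706 and 378 bp. The other 10 had H3K27ac in all 4 lists, among them SPI1, the gene of the myeloid factor PU.1, at 6405 and 6186 bp with Corin and 4815 and 4476 bp with DMSO. Among lymphoid markers, CD3D, CD3E, CD2, GZMB and KLRD1 had no peak of any mark in any list. The B cell genes PAX5 and MS4A1 and the natural killer cell gene NCAM1 had no H3K27ac peak but did have H3K4me2. It covered 7071 and 6847 bp with Corin and 6709 and 7344 bp with DMSO at PAX5, 1016 and 659 bp against 436 and 410 bp at MS4A1, and 2298 and 2453 bp against 2170 and 2839 bp at NCAM1. H3K4me3 was at NCAM1 in every list and at PAX5 in all but DMSO 1. CD79A, a B cell receptor gene, had H3K27ac, at 4701 and 5504 bp with Corin and 1657 and 626 bp with DMSO, and the part of these marks in the results for the cluster was not tested. Of 4 erythroid markers 1, KLF1, had peaks.

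The whole lists set the scale. Corin lists held more peaks, 34424 and 30029 against 17599 and 19995 for H3K27ac, and they covered 1.96 times as many bases for H3K27ac, 1.28 times for H3K4me2 and 1.06 times for H3K4me3. Each library had at least 5000000 reads per the labels, but the depth of each list is unknown, and more reads or a stronger mark lengthen a list in the same way and cannot be told apart here. Values are therefore also given from an equal number of top-scoring peaks per list, 17599 for H3K27ac, and these are called lists of equal length.

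Over the whole interval, H3K27ac peaks covered 24867 and 20752 bp in the Corin lists and 11433 and 12107 bp in the DMSO lists. Both Corin lists lay above both DMSO lists, at 26.8% ± 3.42 (SD, n = 2) of the interval against 13.9% ± 0.561 (SD, n = 2). The log2 ratio was 0.95 ± 0.19 (SD), a fold of 1.94 that is close to the 1.96 of the whole lists, and it was 0.78 with lists of equal length. In bases rather than as a ratio, 26 of 10613 stretches of this length with an H3K27ac peak had a difference at least as large, and the DMSO level was reached by 43 of them.

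H3K4me2 peaks covered 24835 and 23333 bp with Corin and 20784 and 20520 bp with DMSO, a log2 ratio of 0.22 ± 0.06 (SD). H3K4me3 peaks covered 11027 and 10588 bp with Corin and 8802 and 9707 bp with DMSO, a log2 ratio of 0.22 ± 0.11 (SD). In both marks the groups did not overlap, but the step was far smaller than for H3K27ac. The fold of H3K4me2, 1.17, lay below the 1.28 of its whole lists, and the same 1.17 for H3K4me3 lay above its 1.06. An exact two-sided permutation test of 2 libraries against 2 cannot give a p below 0.333.

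H3K27ac lay on H3K4me2 over a larger share in the interval than across the genome. In the DMSO lists, 91.5% and 86.7% of the H3K27ac bases of the interval lay under H3K4me2 of the same replicate number, against 58.2% and 64.3% over the genome. With Corin the shares were 80.6% and 82.4%, lower than both DMSO values, against 58.0% and 57.6% over the genome. Bases with H3K27ac in both Corin lists and neither DMSO list came to 6333 bp in 27 pieces, and 0 bp went the other way. Of these bases 56.6% already lay under H3K4me2 in the DMSO lists, against 36.6% for such bases across the genome, and 21.3% lay under H3K4me3 there, against 22.3%.

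Where the bases lay differed between marks. Within the 6 gene bodies together, H3K27ac covered 8780 and 8795 bp with Corin and 5498 and 5296 bp with DMSO, a fold of 1.63. In the spaces between the genes it covered 7461 and 5317 bp with Corin and 1512 and 2082 bp with DMSO, a fold of 3.56. The bodies thus went from 34.3% to 55.9% covered and the spaces, from a lower level, from 6.15% to 21.9%. The groups did not overlap in either. For H3K4me2 the folds were 1.08 in the bodies and 1.33 in the spaces, and for H3K4me3 they were 1.14 and 2.39. The H3K4me3 means went from 6186 to 7057 bp in the bodies and from 454 to 1084 bp in the spaces.

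**Figure D2:**
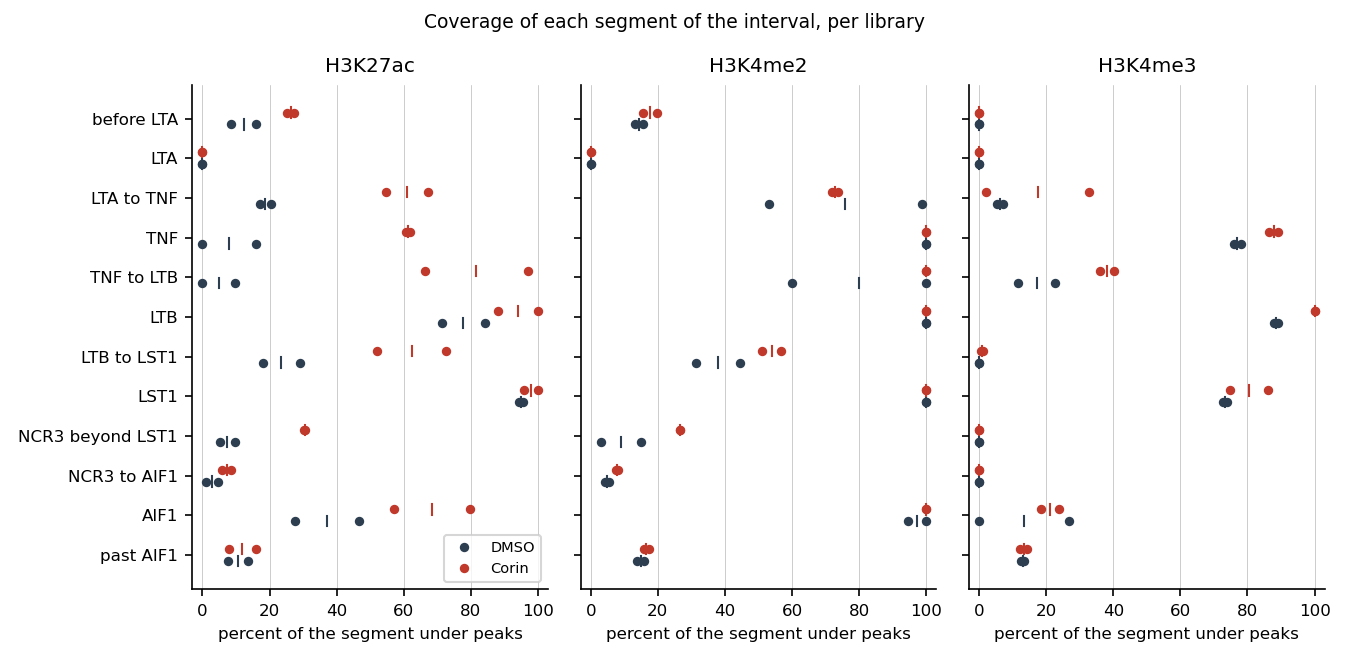
Percent of each segment of the interval under peaks (x axis) for each library (points) and the group means (ticks), by mark; segments run from 5′ to 3′ along the plus strand. H3K27ac points of the 2 groups lie farthest apart over TNF (61.2% against 7.99% on average) and between TNF and LTB (81.6% against 4.82%), and H3K4me2 points over TNF, LTB and LST1 all sit at 100%.

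Among the cytokine genes, LTA (ENSG00000226979.9, plus strand, chr6:31572054-31574324) was bare. No list of any mark had a base under a peak within the gene, nor within the 250 bases before either RefSeq start of LTA. Upstream, the nearest H3K27ac region of any list ended 8467 bp before LTA, and the 20 kb before the gene held 5453 and 5053 bp with Corin and 1729 and 3207 bp with DMSO. Between LTA and TNF, H3K27ac covered 833 and 679 of 1240 bp with Corin and 254 and 211 bp with DMSO. That space did not keep its order with lists of equal length, where the values were 833 and 0 bp against 254 and 0 bp.

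TNF (ENSG00000232810.5, plus strand, chr6:31575565-31578336), the gene of the inflammatory cytokine, showed the widest gap between groups of any gene body here. H3K27ac covered 1713 and 1680 of its 2772 bp with Corin and 443 and 0 bp with DMSO. Both Corin lists were high and DMSO 2 had no peak in the gene, a difference of 1475 bp ± 314 (SD of the difference, n = 2). This depended on the length of the lists: with lists of equal length the values were 433 and 1362 bp against 443 and 0 bp, and the groups overlapped. In the 250 bases before the TNF start, H3K27ac covered 250 and 250 bases with Corin and 0 and 203 bases with DMSO, and that order was lost with lists of equal length, at 250 and 0 bases against 0 and 0 bases.

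The methyl marks at TNF were present without Corin. H3K4me2 covered the whole gene and the 250 bases before it in all 4 lists. H3K4me3 covered 2398 and 2469 bp of the gene with Corin and 2102 and 2168 bp with DMSO, 299 bp ± 68.5 (SD of the difference, n = 2) more with Corin. The 2 H3K27ac regions found in both Corin and no DMSO list inside TNF, chr6:31576310-31576582 and chr6:31576827-31577957, were overlapped by H3K4me2 and H3K4me3 peaks in all 4 lists of each mark. With lists of equal length neither was in both Corin lists alone. The first holds the printed sequence from the end of intron 1, with the matches TTCCTC and GGGTGACTCC in it, and the second runs from the third intron into exon 4.

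Between TNF and LTB lies a space of 2188 bp. H3K27ac covered 2123 and 1449 bp of it with Corin and 0 and 211 bp with DMSO, and with lists of equal length 2123 and 1187 bp against 0 and 211 bp. This space kept its order in both settings, at 81.6% against 4.82% of its length as deposited. H3K4me3 there covered 788 and 877 bp with Corin and 256 and 498 bp with DMSO, and with lists of equal length 535 and 522 bp against 256 and 498 bp. Its difference then fell from 456 bp to 152 bp ± 171 (SD of the difference, n = 2), so it was less than that spread. A single H3K4me2 peak of 8775, 8750 and 8763 bp joined TNF and LTB in Corin 1, Corin 2 and DMSO 1, where at least 99.9% of the peaks of each list were narrower, while in DMSO 2 the domain was split into peaks of 3794 and 3847 bp.

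LTB (ENSG00000227507.3, minus strand, chr6:31580525-31582522) carried H3K27ac in all 4 lists. Its body was covered over 1998 and 1758 of 1998 bp with Corin and 1680 and 1427 bp with DMSO. The Corin lists were higher by 325 bp ± 247 (SD of the difference, n = 2). With a DMSO mean of 1553.5 bp the body left little room for more, and Corin 1 covered it whole. Within 10 kb either side of the LTB start, H3K27ac covered 12918 and 10957 bp with Corin and 6297 and 5128 bp with DMSO. The genes were chosen by this difference, so its rank, with 3 genes of the genome larger, follows from the choice. The DMSO mean in this window, 5713 bp, was already above that of 99.3% of the 10532 genes with an H3K27ac peak in the window.

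The upstream edges of H3K4me3 and H3K27ac lay farther out at LTB with Corin. H3K4me3 ended 46 and 23 bp before the outermost GENCODE start of LTB with Corin, and 217 and 242 bp inside the gene with DMSO. In the 250 bases before the RefSeq start, which hold the GGAAAGTCCC match, H3K4me3 covered 143 and 120 bases with Corin and 0 and 0 bases with DMSO. H3K27ac covered 250 and 250 of these bases with Corin and 34 and 50 bases with DMSO, and it reached 579 and 516 bp before the GENCODE start with Corin. H3K4me2 covered these 250 bases in every list, with its edge 902 and 902 bp before the start with Corin and 582 and 902 bp with DMSO, so that edge overlapped between groups. With lists of equal length these 250 bases kept the same H3K27ac and H3K4me3 values, and the LTB body kept 1998 and 1758 bp of H3K27ac against 1680 and 1427 bp.

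Next to the cytokines, LST1 (ENSG00000204482.11, plus strand, chr6:31586124-31588909) was the most fully acetylated gene of the cluster with DMSO. H3K27ac covered 2786 and 2671 of its 2786 bp with Corin and 2661 and 2632 bp with DMSO. All 4 lists were near full, at 97.9% against 95.0% on average, though the groups did not overlap. One peak lay over the gene in each list, 4778 and 3806 bp wide with Corin and 3706 and 3279 bp with DMSO. It reached past both ends of LST1 in Corin 1 alone and stopped short of the 3′ end in the other 3 lists, and at least 99.5% of the peaks of each list were narrower. H3K4me2 covered LST1 whole in all 4 lists, and H3K4me3 covered 2083 and 2402 bp with Corin and 2055 and 2026 bp with DMSO.

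The space of 3601 bp between the starts of LTB and LST1, which point away from each other, was more fully covered with Corin. H3K27ac reached farther into it from both sides, and H3K4me2 from the LST1 side, while the H3K4me2 edge at LTB overlapped between groups. H3K27ac covered 2618 and 1877 bp with Corin and 1045 and 647 bp with DMSO. H3K4me2 covered 2046 and 1836 bp with Corin and 1131 and 1598 bp with DMSO, without overlap. A separate H3K27ac region at chr6:31583880-31584788 was in both Corin lists, over 894 and 226 bp, and in neither DMSO list, and no H3K4me2 or H3K4me3 peak of any list lay on it. It too was not in both Corin lists with lists of equal length.

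NCR3 (ENSG00000204475.10, minus strand, chr6:31588895-31593006), whose last bases overlap the end of LST1, had no H3K4me3 in any list. Over its 4097 bp beyond LST1, H3K27ac covered 1250 and 1246 bp with Corin and 214 and 394 bp with DMSO, and H3K4me2 covered 1092 and 1095 bp with Corin and 123 and 608 bp with DMSO. Both Corin lists were high and close to each other. At the NCR3 start itself, within 1 kb either side, H3K27ac covered 949 and 656 bp with Corin and 0 and 789 bp with DMSO, so the groups overlapped there and DMSO 1 alone had none. H3K4me2 at the start was likewise missing in DMSO 1, with 696 and 627 bp against 0 and 547 bp.

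AIF1 (ENSG00000204472.13, plus strand, chr6:31615217-31617021) stands apart from the rest by 22210 bp. H3K27ac covered 1033 and 1440 of its 1805 bp with Corin and 500 and 843 bp with DMSO. The groups did not overlap, a difference of 565 bp ± 376 (SD of the difference, n = 2). Its H3K27ac peak began 840 and 824 bp before the start with Corin and 213 and 342 bp before it with DMSO, and the printed AIF1 sequence lies in the stretch between these edges. H3K4me2 began 1494 and 1459 bp before the start with Corin and 931 and 940 bp with DMSO, while H3K4me3 was weak, with 432 and 334 bp against 0 and 484 bp, or 0 and 0 bp with DMSO in lists of equal length. Past AIF1, where PRRC2A and the protein-coding models ENSG00000291302 and ENSG00000289282 within it begin, the groups overlapped for all 3 marks.

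**Figure D3:**
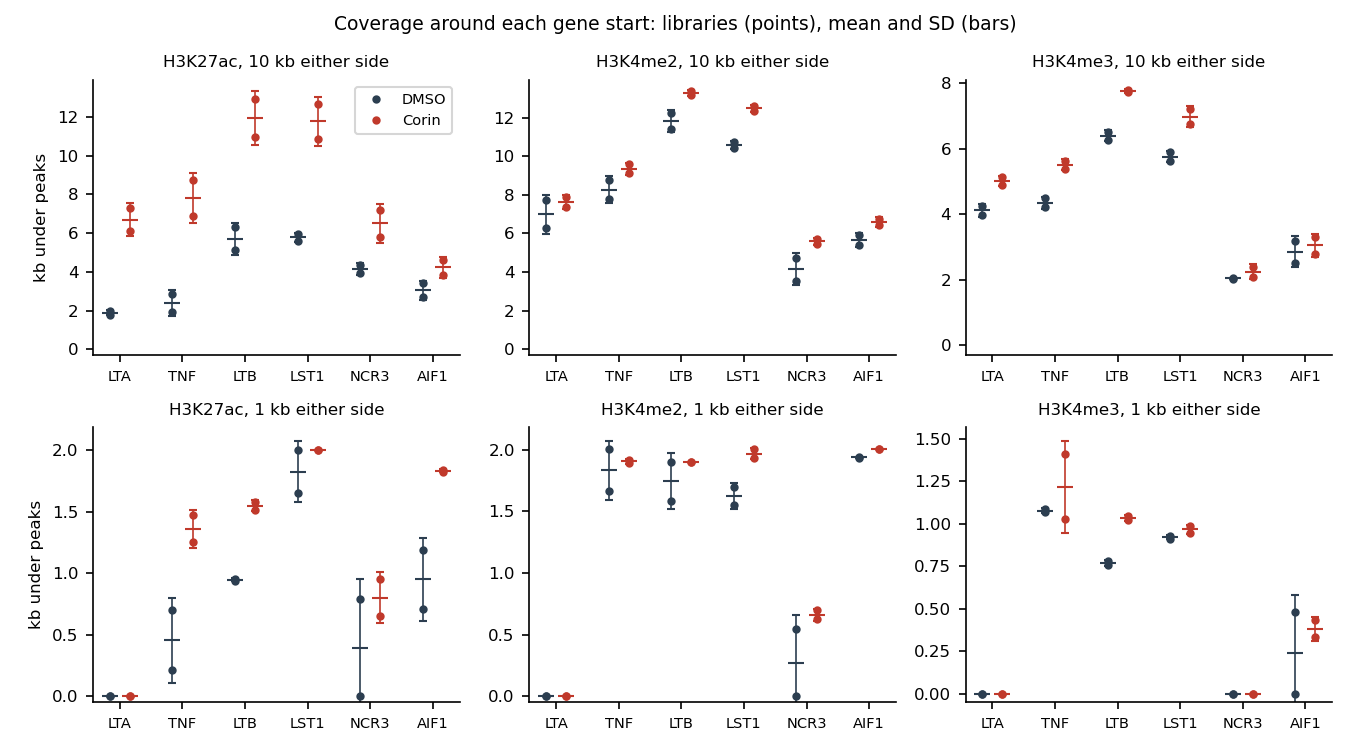
Bases under peaks (kb) within 10 kb (top) and 1 kb (bottom) of the start of each gene, by mark; points are libraries, bars the group mean and SD (n = 2), blue-black DMSO and red Corin. In the top left panel all 6 genes have both Corin points above both DMSO points, and in the bottom row LTA sits at 0 for every mark. The y axes differ between panels.

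Set against all genes, the cluster was at the upper end for size and less so for direction. For H3K27ac the size around LTB follows from the choice of the genes by that difference. Within 10 kb either side of the start, both Corin lists were above both DMSO lists at 6 of the 6 genes for H3K27ac, where 54.6% of the 10532 genes with a peak did the same, and 0 of 6 had both below, against 0.655%. For H3K4me2 the count was 5 of 6 against 39.5%, with 0 of 6 lower against 3.83%, and LTA was the gene that overlapped. For H3K4me3 it was 5 of 6 against 25.7%, with 0 of 6 lower against 8.28%, and AIF1 overlapped. LTA and NCR3 count there through H3K4me3 of neighbouring genes, having none over their own bodies. These windows share DNA: those of LTA, TNF, LTB and LST1 lie over one another and that of NCR3 overlaps those of TNF, LTB and LST1, while only that of AIF1 is separate, so the 6 counts are not 6 separate observations.

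The median difference of the 6 genes was 5110 bp for H3K27ac, against 445 bp over all genes with a peak. The genes were chosen by this difference at LTB, and most of their windows share bases. As a ratio, the H3K27ac fold of the interval, 1.94, was close to the 1.96 of the whole lists. For H3K4me2 the median difference was 1268 bp against 234 bp, and for H3K4me3 1026 bp against 63.5 bp. LTB, LST1, TNF and LTA had differences of 6225 bp ± 1614, 5984 bp ± 1311, 5405 bp ± 1458 and 4814 bp ± 850 (SD of the difference, n = 2) in H3K27ac. NCR3 at 2377 bp ± 1047 and AIF1 at 1173 bp ± 729 were smaller, with 400 and 1661 genes above them. Within 1 kb of the start 5 of the 6 genes had an H3K27ac peak, 5 an H3K4me2 peak and 4 an H3K4me3 peak, and LTA had none. Of those with a peak, both Corin lists were higher at 3 of 5 for H3K27ac, against 44.7% of genes with a peak there, at 3 of 5 for H3K4me2, against 18.8%, and at 2 of 4 for H3K4me3, against 18.4%. Lower at the start were 0 of them for each mark, against 0.932%, 10.5% and 9.36% of genes.

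With lists of equal length, 5 of 6 genes had both Corin above both DMSO for H3K27ac, against 35.3% of genes with a peak, and AIF1 overlapped at 4608 and 3321 bp against 3407 and 2707 bp. The counts were 5 of 6 against 31.3% for H3K4me2 and 6 of 6 against 24.3% for H3K4me3. The windows also hold peaks of neighbouring genes. LTA and NCR3 had no H3K4me3 over the gene in any list, and the NCR3 window held only the H3K4me3 of LST1, 2083 and 2402 bp against 2055 and 2026 bp. In the AIF1 window, 2874 and 2459 bp with Corin and 2521 and 2708 bp with DMSO lay past AIF1, at the start of PRRC2A. LTB stood at 11638 and 9242 bp against 6297 and 4917 bp of H3K27ac in that setting.

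**Figure D4:**
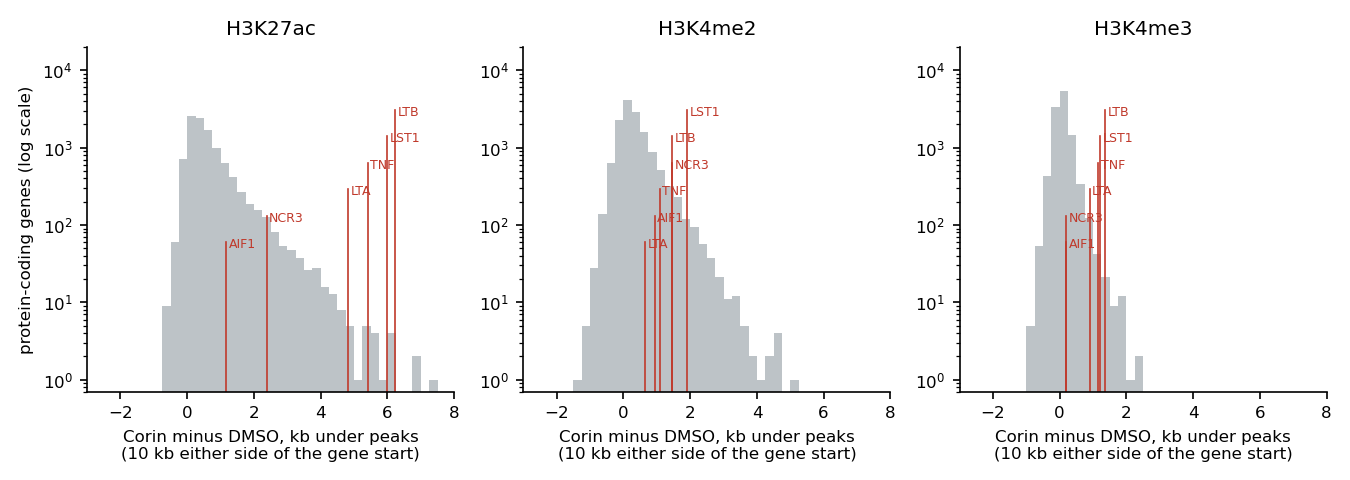
Corin minus DMSO difference in bases under peaks within 10 kb of the gene start (x axis, kb) for all protein-coding genes with a peak there (grey bars, number of genes on a log scale), with the 6 genes as red lines. For H3K27ac LTB, LST1, TNF and LTA lie in the far right tail. The genes were chosen by the LTB value, and the windows of LST1, TNF and LTA overlap that of LTB. AIF1, at 1173 bp, lies nearer the bulk but above the median of 445 bp, with 1661 genes above it.

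Counted as regions, the interval held 21 H3K27ac regions over the 4 lists, of which 8 were in all 4. Both Corin and no DMSO list had 4 of them, against 11.5% of 41587 regions in the genome, and 0 were in both DMSO lists alone, against 0.18%. With lists of equal length 0 were in Corin alone, against 4.49%. Of 9 H3K4me2 regions 0 were in Corin alone, against 9.64%, and of 7 H3K4me3 regions 0 were, against 1.49%. The same 0 held with lists of equal length, against 3.91% and 0.804%, and 0 of either were in DMSO alone, against 0.158% and 0.289%. Bases with H3K4me2 or H3K4me3 in both Corin lists and neither DMSO list, 1809 bp and 467 bp, lay in regions that a DMSO list had too. Those in both DMSO lists and neither Corin list came to 313 bp and 64 bp.

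The genes most like LTB over the 12 lists, by the mean absolute difference in bases within 10 kb of the start, were ZFP36 at 853 bp, ODF3B at 924 bp, PARP8 at 1141 bp, CISH at 1371 bp and ZNF516 at 1411 bp. ZFP36 encodes tristetraprolin, which binds AU-rich messenger RNAs, that of TNF among them, and CISH encodes an inhibitor of cytokine signalling. H3K27ac at ZFP36 covered 10729 and 10635 bp with Corin and 6377 and 6628 bp with DMSO. At CISH it covered 13870 and 13890 bp with Corin and 5255 and 8756 bp with DMSO. The nearest to an overlap of the groups was PARP8, at 13579 and 8253 bp against 6696 and 7916 bp. Likeness was measured on these same values, so their shared direction follows from the choice.

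Other genes of the pathway were described from lists, over the same windows. Their values, like those of the cell type markers, are given from the peak lists as deposited only, not from lists of equal length. Windows of neighbouring genes in a list can share DNA, so the counts are not counts of separate observations. Counts are given over the genes with a peak of the mark in any list, as are the shares of all genes beside them, and a gene with peaks in both Corin lists and no DMSO list counts as higher in both. Of 15 TNF superfamily ligands elsewhere in the genome, 6 had an H3K27ac peak, and 5 of these 6 had both Corin above both DMSO, against 54.6% of genes. The counts were 8 of 11 against 39.5% for H3K4me2 and 2 of 6 against 25.7% for H3K4me3. TNFSF9, the ligand of the costimulatory receptor 4-1BB, had 2389 and 2305 bp of H3K27ac with Corin and 0 and 519 bp with DMSO. CD70 had 4997 and 3715 bp against 2024 and 4059 bp, which overlapped. For H3K4me2 the largest differences were at TNFSF10, the gene of TRAIL, with 3647 and 4195 bp against 1533 and 1984 bp, and at TNFSF14 with 4254 and 4538 bp against 2509 and 2746 bp. For H3K4me3 they were at TNFSF13, the gene of the B cell factor APRIL, with 2275 and 3629 bp against 1683 and 2855 bp, which overlapped, and at CD70 with 1191 and 1236 bp against 674 and 1106 bp. TNFSF13 also had 3174 and 3293 bp of H3K27ac against 998 and 2848 bp.

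Of 14 receptors, 8 of the 9 with an H3K27ac peak had both Corin lists higher, against 54.6% of genes. The counts were 6 of 13 against 39.5% for H3K4me2 and 3 of 9 against 25.7% for H3K4me3, both near the share of all genes. TNFRSF1B, one of the TNF receptors, had 3909 and 3240 bp of H3K27ac with Corin and 212 and 928 bp with DMSO, and TNFRSF1A, the other, had 7503 and 6472 bp against 4268 and 4047 bp. LTBR, the lymphotoxin beta receptor, had 3224 and 2204 bp against 1464 and 2138 bp. In H3K4me2 the TRAIL receptor genes TNFRSF10B, at 10171 and 9405 bp against 6852 and 6773 bp, and TNFRSF10A, at 7231 and 7190 bp against 4992 and 4133 bp, had the largest differences. In H3K4me3 they were at TNFRSF1A, with 3333 and 3705 bp against 2476 and 2650 bp, and at TNFRSF14, with 1636 and 2078 bp against 666 and 1315 bp.

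Of 18 signalling genes, 7 of the 15 with an H3K27ac peak were higher in both Corin lists, against 54.6% of genes. The counts were 10 of 18 against 39.5% for H3K4me2 and 7 of 16 against 25.7% for H3K4me3, and 0, 1 and 2 genes were lower, against 0.655%, 3.83% and 8.28%. IKBKB, a kinase that releases NF-kappaB, had 6043 and 4350 bp of H3K27ac with Corin and 1376 and 1824 bp with DMSO, and RELA, an NF-kappaB subunit, had 1879 and 1714 bp against 212 and 810 bp. In H3K4me2, IKBKB had 4206 and 4130 bp against 1834 and 3108 bp, and MAP3K14, the kinase NIK of the noncanonical pathway, had 3998 and 3679 bp against 1759 and 2594 bp. In H3K4me3, IKBKB had 1483 and 1438 bp against 836 and 999 bp, and NFKB2, the precursor of the NF-kappaB subunit p52, had 1824 and 1708 bp against 1424 and 1465 bp. Lower in both Corin lists were NFKB2 in H3K4me2, at 3335 and 3024 bp against 3546 and 3477 bp, and BIRC2 and MAP3K7 in H3K4me3. BIRC2 had 1017 and 1176 bp against 1392 and 1345 bp, and MAP3K7 had 1238 and 1228 bp against 1273 and 1651 bp. The median H3K27ac difference of the 15 genes with a peak, 318 bp, lay below the 445 bp of all genes with a peak.

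Of 13 genes of NF-kappaB feedback and response, 10 of the 12 with an H3K27ac peak were higher in both Corin lists, against 54.6% of genes. The counts were 11 of 13 against 39.5% for H3K4me2 and 5 of 9 against 25.7% for H3K4me3, and 0 were lower for any mark, against 0.655%, 3.83% and 8.28%. The median differences of those with a peak were 1020 bp, 1225 bp and 264 bp. TNFAIP3, the gene of the inhibitor A20, had 4240 and 1842 bp of H3K27ac with Corin and 0 and 288 bp with DMSO, and BCL3 had 4486 and 1981 bp against 577 and 196 bp. In H3K4me2, CCL2, a chemokine gene, had 3241 and 3054 bp against 367 and 290 bp, and IL1B, the interleukin-1 beta gene, had 4297 and 3871 bp against 1260 and 1573 bp. In H3K4me3, ICAM1, an adhesion molecule gene, had 1816 and 1937 bp against 225 and 248 bp, and BCL3 had 1195 and 1659 bp against 744 and 580 bp.

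Of 15 other class III genes outside the interval, 11 had a peak of each mark. Higher in both Corin lists were 8 of 11 for H3K27ac against 54.6% of genes, 5 of 11 for H3K4me2 against 39.5% and 7 of 11 for H3K4me3 against 25.7%, with medians over these 11 genes of 1422 bp, 268 bp and 454 bp. MSH5 and CLIC1 had the same values in every list and are each counted as higher for every mark, so these 11 genes are not 11 separate observations. HSPA1B, a heat shock gene whose near-identical copy HSPA1A makes its reads uncertain, had 7244 and 6566 bp of H3K27ac with Corin and 3551 and 5198 bp with DMSO. CSNK2B, a casein kinase subunit, had 3791 and 4349 bp against 2016 and 2189 bp. In H3K4me2, CSNK2B had 6701 and 6829 bp against 5840 and 6069 bp and CLIC1, an intracellular channel protein gene, had 8095 and 8081 bp against 7379 and 7409 bp. In H3K4me3, AGER, the gene of the receptor RAGE, had 5529 and 5504 bp against 4121 and 4042 bp and PBX2, a homeobox gene, had 3336 and 3995 bp against 2401 and 2565 bp. The myeloid markers had an H3K27ac median of 2338 bp, with the largest differences at CEBPA, at 9387 and 7666 bp against 3551 and 5818 bp, and HOXA9, at 9670 and 9070 bp against 5006 and 6880 bp. All 12 were higher in both Corin lists, against 54.6% of genes, 2 of them with no peak with DMSO. In H3K4me2, 8 of the 11 markers with a peak were higher in both Corin lists, against 39.5% of genes, and 1 was lower, against 3.83%. The largest H3K4me2 differences were at CEBPE, at 7302 and 5949 bp against 3719 and 3357 bp, and ITGAM, at 3039 and 2536 bp against 0 and 0 bp, and the lower one was MEIS1, a leukaemia transcription factor gene, at 9994 and 8884 bp against 10357 and 10305 bp. In H3K4me3, 4 of the 8 markers with a peak were higher, against 25.7% of genes, and 0 were lower, against 8.28%, with a median of 267 bp against 63.5 bp over all genes with a peak.

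**Figure D5:**
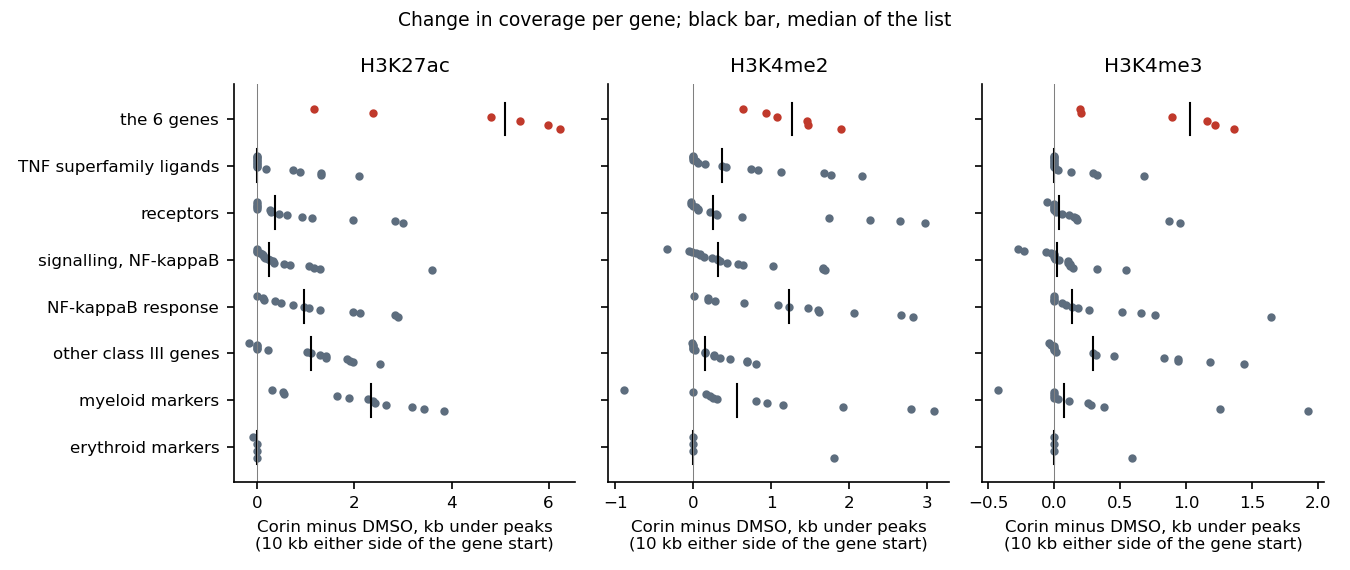
Corin minus DMSO difference in bases under peaks within 10 kb of the gene start (x axis, kb; scales differ) for each gene (points) of the 6-gene cluster (red) and of the other lists (grey), with the median over all genes of the list, those without a peak at 0, as a black bar. For H3K27ac the median of the cluster is 5110 bp, that of the myeloid markers 2338 bp, and those of the ligands and the erythroid list 0 bp. The cluster was chosen by its H3K27ac difference at LTB, and most of its windows share DNA.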

How the data were processed

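CUT&RUN for H3K27ac, H3K4me2 and H3K4me3 was analysed in 12 MOLM-13 libraries, 2 with Corin and 2 with DMSO for each mark; the other 7 libraries of the series were not analysed here. Trim Galore, Bowtie2, Picard and MACS2 and the build GRCh38/hg38 are named in the submitters' processing notes. The peak lists hold, per the values, a score of at least 50 per peak as the authors deposited it, called separately for each library. The peak calling threshold and control are not given in the sources used here, and what the score measures is not stated; it served only to rank peaks within a list.

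Bases under peaks were counted for the interval, for gene bodies, for the spaces between genes, and within 10 kb and 1 kb of gene starts (GENCODE release 44), with Python 3 scripts checked on simulated peaks. Group means, SD and log2 ratios are descriptions. The SD of a difference is the root of the summed variances. Regions are unions of the peaks of the 4 lists of a mark, present in a list with any overlap. Named genes are the 6 genes, the protein-coding genes starting in the interval, the 5 genes nearest to LTB over the 12 lists, and, for each pathway list and mark, the 2 with the largest difference and any lower one, with others, cell type markers among them, named as examples after their values were seen. One lymphoid marker, and counts and sums that include it, are not reported here. Members and lists were chosen with earlier results of these data known. Depth per library is unknown, and the number of libraries limits the precision. Alternatives were the top 17599, 30896 or 11104 peaks per list (H3K27ac, H3K4me2, H3K4me3), a score of at least 100, other flanks, peaks within 1000 bp joined, presence over 50% of a region, each library left out, and a replicate block.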

Additional observations from a re-analysis of the deposited data

How the results depend on the processing

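The log2 ratio of H3K27ac over the interval was 1.20 with peaks of score at least 100 in place of 0.95, and that of H3K4me3 was 0.36 with peaks closer than 1000 bp joined in place of 0.22. Leaving out each library in turn gave 0.82 to 1.08 for H3K27ac, 0.18 to 0.27 for H3K4me2 and 0.15 to 0.30 for H3K4me3. The number of H3K27ac regions in both Corin lists alone, 4 as deposited, was 0 with lists of equal length, 2 with score at least 100, and 4 to 8 with each library left out, the 8 being without DMSO 2 and 7 without Corin 1. That number, 0 as deposited, was 0 to 2 for H3K4me2 and 0 to 1 for H3K4me3 with each library left out, with 2 without Corin 2 and 1 without DMSO 2 for H3K4me2, and 1 without either Corin list for H3K4me3. The cause was not tested. With a replicate block the ratios were 0.95, 0.22 and 0.23; deviations of same-numbered libraries correlated at 0.29, 0.31 and 0.23 across genes, but the labels give no shared culture or day for a number and each mark has only 2 pairs. With 0 kb and 50 kb either side of the genes the H3K27ac ratio was 1.08 and 0.88. Of the settings run on these 6 values, 41 stayed within the spread or count limit and 10 moved, and 0 reversed. Of those on single genes and shares, 126 stayed and 39 moved. Among the 18 differences of single genes 2, whose groups overlapped, changed sign with 1 library left out: H3K4me2 at LTA, 635.5 bp within 10 kb, was -85.5 bp without DMSO 2, and H3K4me3 at AIF1, 193 bp, was -63.5 bp without Corin 1 and -142.5 bp without DMSO 1. The values of segments and of the 250 bases before starts with lists of equal length were added after seeing the data: 48 of these differences stayed within the spread and 3 moved, H3K27ac over TNF to 676 bp, H3K27ac between LTA and TNF to 289.5 bp and H3K4me3 between TNF and LTB to 151.5 bp. The lists give bases under peaks and no height, and 2 libraries per group and unknown depth limit every value.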
